A study of Mus musculus with 6 samples.

Results

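The E proteins and their ID inhibitors are a family of helix-loop-helix factors, described here through 6 genes taken by name from a deposited table of 49585 genes: the inhibitor genes Id1, Id2 and Id3 and the E protein genes Tcf3, Tcf4 and Tcf12. All 6 were present in the table. The libraries hold poly(A) RNA of splenic regulatory T cells (Tregs) of C57BL/6 mice aged 7 weeks. The cells were sorted as CD4+, YFP+ and B220-, with CD25 named as a further sort marker in the series' design, and were cultured for 24 h on plate-bound CD3 and CD28 antibodies. The comparison has 3 libraries of mice labelled WT and 3 of mice labelled Bach2-cKO, by its name a conditional knockout of the repressor gene Bach2. The sources used here do not give the Cre driver, the cells in which Bach2 was deleted or the number of mice behind a library. The p-values therefore measure the spread between these libraries, which may be technical.

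E proteins bind DNA at E-box motifs as dimers, in which the helices pair the partners and a basic stretch contacts the DNA. ID proteins have the helices but no basic stretch, so a dimer of an ID and an E protein does not bind DNA. In T cells this balance acts from the thymus to effector and memory stages. Id3 is known from naive, follicular and memory-precursor T cells, Id2 from effector cells and innate lymphocytes, and Id2 and Id3 together are needed to keep the Treg pool. Tcf3 encodes E12 and E47 (E2A), Tcf12 encodes HEB and Tcf4 encodes E2-2, a factor of plasmacytoid dendritic cells and B cells. A value per gene sums all isoforms, so E12 and E47, or the long and short forms of HEB, were not separated.

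The coding stretches below are shown because Id2 and Id3, which moved in opposite directions, are close relatives, so the length of the bases they share bears on how reads are assigned. Each is 105 bases of coding sequence, read from GENCODE M21 transcripts on GRCm38. The stretches are centred on the longest run that the coding sequences of Id2 and Id3 share, or on its counterpart in Id1. They were not set by the bounds of the helix-loop-helix. The capitals mark that run, 15 bases. The Id1 stretch is on the plus strand at chr2:152736549-152736653, the Id2 stretch on the minus strand at chr12:25095767-25095871 and the Id3 stretch on the plus strand at chr4:136144033-136144137.
Id1: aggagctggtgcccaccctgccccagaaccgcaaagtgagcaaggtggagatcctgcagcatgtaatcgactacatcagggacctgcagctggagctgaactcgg
Id2: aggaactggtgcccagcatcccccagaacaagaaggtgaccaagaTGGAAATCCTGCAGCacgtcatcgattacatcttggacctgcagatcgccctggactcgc
Id3: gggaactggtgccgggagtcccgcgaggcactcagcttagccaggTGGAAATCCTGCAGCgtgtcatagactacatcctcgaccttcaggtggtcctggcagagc

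Over these stretches Id2 was identical to Id1 at 79.0% of the bases and to Id3 at 69.5%, and Id1 was identical to Id3 at 63.8%. Id1 shared no run of over 11 bases with either relative. Among the E protein genes the longest shared coding runs were 23 bases between Tcf3 and Tcf4, 18 between Tcf3 and Tcf12 and 17 between Tcf4 and Tcf12. In the deposited positions, which are on GRCm38, Id1 lies at chr2:152736251-152737410, Id2 at chr12:25093801-25096092 and Id3 at chr4:136143497-136145755. Tcf3 lies at chr10:80409514-80433647, Tcf12 at chr9:71842688-72111871 and Tcf4 on chromosome 18. No gene overlapped Id1, Id2, Id3 or Tcf3. Tcf12 and Tcf4 contain small genes and pseudogenes within their loci, at most 3.004 FPKM in any library.

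The values are FPKM, read counts scaled by the length of the gene and the total of the library, and read totals recovered from them ran from 27697735 to 43884431 per library. On the first principal component, which took 55.0% of the variance, the groups were apart and Bach2-cKO replicate 3 was the nearest of its group to WT. Bach2 lay at 107.6 ± 7.11 FPKM in WT and 104.7 ± 16.0 in Bach2-cKO (SD, n = 3 each). This sum over all exons does not check the labels, so every direction below rests on them. The 7 T cell and Treg markers summed to 1876.6 to 2243.1 FPKM in WT and 2033.0 to 2370.4 in Bach2-cKO. Of these 7, Il2ra, which encodes CD25, was called higher (0.92 on the log2 scale, limma adjusted p = 0.00186), Cd3d was called lower (-0.37, 0.0292) and 5 did not pass. Cd3e lay at 151 to 194 FPKM and Foxp3 at 104 to 153. Markers of B cells were also present, although the cells were sorted as B220-, and their sums are given with Tcf4. In a mixture measured in bulk, fewer cells of a type and less RNA per cell cannot be told apart.

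Id3 was lower, Id2 and Tcf4 were higher and the weakly expressed Id1 was lower in the Bach2-cKO libraries, while Tcf3 and Tcf12 did not pass the test. All 6 genes passed the filter on low values (at least 1 FPKM in at least 3 libraries), and 4 were called at an adjusted p under 0.05, 2 in each direction. Of these, Id1 passed the filter through the WT libraries, and the counts include it; with no filter it was not called (adjusted p = 0.121). Among all 13766 genes tested 15.3% were called, 7.02% higher and 8.31% lower. The groups did not overlap for 5 of the 6 genes, against 35.6% of all genes tested (15.5% higher and 20.1% lower in Bach2-cKO). Fold changes are on the log2(FPKM + 1) scale, on which the median over all genes tested was -0.017. P-values are from limma, adjusted by Benjamini-Hochberg over all genes tested.

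**Figure D1:**
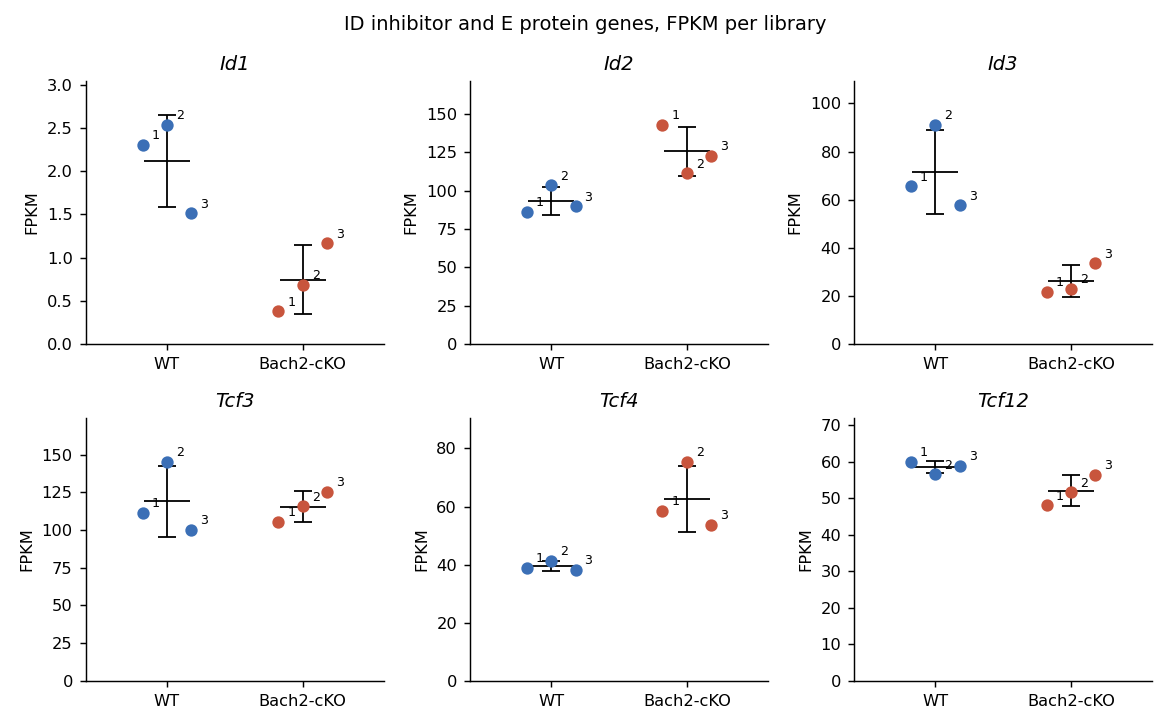
FPKM (vertical axes, linear, from 0) of each gene in the 3 WT (blue) and 3 Bach2-cKO (red) libraries, numbered by replicate, with the mean and SD of each group in black. The groups are apart for all genes but Tcf3, and Id3 shows the widest gap, with WT libraries at 57.7 to 91.0 and Bach2-cKO libraries at 21.8 to 33.7.

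Id3 had the largest change of the family on the log2(FPKM + 1) scale, although Id1, at a far lower level, had the larger ratio of means. It was at 65.6, 91.0 and 57.7 FPKM in WT replicates 1, 2 and 3 and at 21.8, 23.1 and 33.7 FPKM in Bach2-cKO replicates 1, 2 and 3. WT replicate 2 was the highest library, and Bach2-cKO replicate 3 was nearest to WT but still below every WT library. Mean Id3 was 71.4 ± 17.4 FPKM in WT and 26.2 ± 6.53 in Bach2-cKO (SD, n = 3 each), 2.73 times higher in WT. The log2 fold change was -1.41 (SE 0.20, limma adjusted p = 0.00449). In size it exceeded that of 99.1% of the genes tested, and by p it stood at rank 475 of 13766. It stayed between -1.60 and -1.23 with each library left out in turn, and the adjusted p stayed at or under 0.0212.

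Id2, the inhibitor gene of effector and innate lymphocytes, was higher in Bach2-cKO. It was at 86.3, 103.7 and 90.0 FPKM in the WT libraries and at 142.9, 111.3 and 122.9 FPKM in Bach2-cKO replicates 1, 2 and 3. The gap between the groups was narrow, from WT replicate 2 to Bach2-cKO replicate 2. Mean Id2 was 93.3 ± 9.12 FPKM in WT and 125.7 ± 16.0 in Bach2-cKO (SD, n = 3 each), 1.35 times higher in Bach2-cKO. The log2 fold change was 0.42 (SE 0.11, limma adjusted p = 0.0367). Leaving out a WT library ended the call for replicate 1 (adjusted p = 0.127) and replicate 3 (0.0934). Leaving out a Bach2-cKO library ended it for replicate 1 (0.0920) and replicate 3 (0.0544).

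Cytotoxic and innate lymphocytes also express Id2, so their markers are given beside it. Cd8a and Cd8b1, which mark CD8 T cells, were both called higher and summed to 40.2 to 44.2 FPKM in WT and 53.8 to 99.3 in Bach2-cKO. Of 5 markers of NK and innate lymphoid cells, Klrk1 was called higher, Eomes did not pass (0.74 on the log2 scale, limma adjusted p = 0.0661) and 3 were not tested, and their sum was 12.05 to 15.6 FPKM in WT and 22.5 to 29.3 in Bach2-cKO. The NK cell receptor gene Ncr1, which was not tested, lay at 0.146 to 0.416 FPKM in WT and at 0.888 to 1.24 in Bach2-cKO. Bach2-cKO replicate 1 was the highest library for both sums and for Id2. The part of these cells in the Id2 value was not tested.

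Id1, best known as a target of bone morphogenetic protein signals through SMAD factors, was weakly expressed, on both sides of the 1 FPKM of the filter. It was at 2.31, 2.54 and 1.52 FPKM in WT replicates 1, 2 and 3 and at 0.379, 0.687 and 1.17 FPKM in Bach2-cKO replicates 1, 2 and 3. These values rest on 106, 82 and 44 reads in WT and on 11, 23 and 34 reads in Bach2-cKO. The exact 95% Poisson intervals of WT replicate 3 (1.10 to 2.04 FPKM) and Bach2-cKO replicate 3 (0.810 to 1.63 FPKM) overlapped, and they cover counting error only. Mean Id1 was 2.12 ± 0.534 FPKM in WT and 0.745 ± 0.398 in Bach2-cKO (SD, n = 3 each), 2.84 times higher in WT. The log2 fold change, which the pseudocount shrinks at this level, was -0.85 (SE 0.22, limma adjusted p = 0.0411). Since only Bach2-cKO replicate 3 of its group reached 1 FPKM, the gene passed the filter through WT. The call did not hold when WT replicate 1 (adjusted p = 0.135) or 2 (0.127) was left out, or when Bach2-cKO replicate 1 (0.110) or 2 (0.111) was. On recovered reads by limma-voom the log2 fold change was -1.62 (adjusted p = 0.0259). The remaining ID gene, Id4, which is no member here, had 1 read each in WT replicates 1 and 2 and 0 in the other libraries.

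The ratio of Id2 to Id3 was higher in every Bach2-cKO library than in any WT library. It was 1.32, 1.14 and 1.56 in WT replicates 1, 2 and 3 and 6.56, 4.82 and 3.65 in Bach2-cKO replicates 1, 2 and 3. The means were 1.34 ± 0.213 and 5.01 ± 1.47 (SD, n = 3 each). On the log2 scale the mean ratio was 1.87 higher in Bach2-cKO (SE 0.28), a 3.67-fold difference of geometric means. An exact two-sided permutation test gave p = 0.10, the smallest that 3 against 3 libraries allow. The library total cancels within each ratio. Id2 exceeded Id3 in all 6 libraries.

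The summed ID level had overlapping groups, while the shares of Id2 and Id3 in it did not. Id1, Id2 and Id3 together gave 166.9 ± 26.4 FPKM in WT and 152.6 ± 15.7 in Bach2-cKO (SD, n = 3 each). Id3 made up 42.4% ± 3.76 of that sum in WT and 17.2% ± 4.08 in Bach2-cKO, and Id2 made up 56.3% ± 3.90 and 82.3% ± 4.34 (SD, n = 3 each). Shares and sums over the family are descriptions, depend on the gene lengths behind the FPKM and carry no test.

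**Figure D2:**
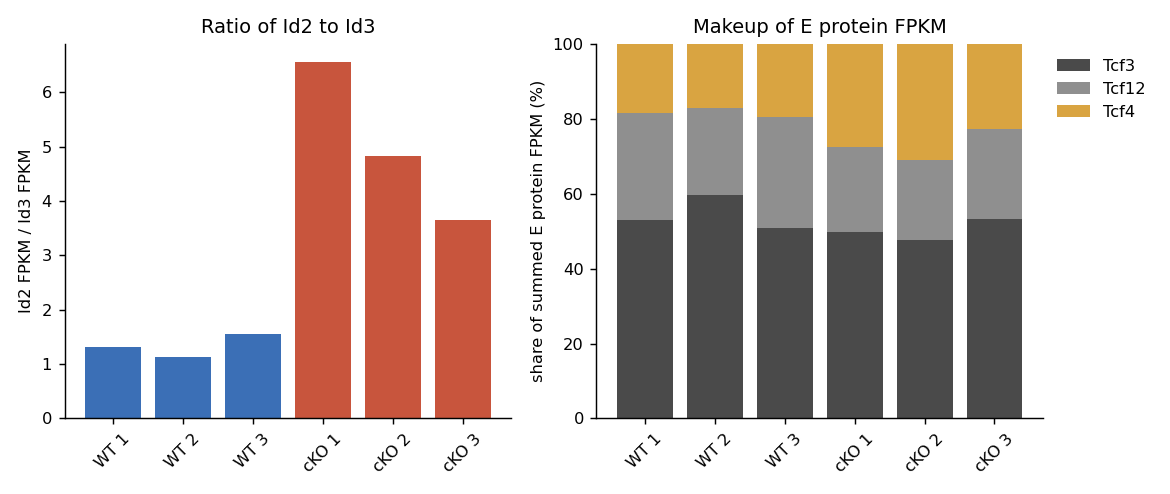
Left, the ratio of Id2 FPKM to Id3 FPKM in each library (bars from 0, blue WT, red Bach2-cKO). Right, the shares of Tcf3, Tcf12 and Tcf4 in the summed E protein FPKM of each library, in percent. The ratio lies at 1.14 to 1.56 in WT and at 3.65 to 6.56 in Bach2-cKO, and the Tcf4 share at 17.0% to 19.4% and 22.8% to 31.0%. The shares depend on the gene lengths behind the FPKM.

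Of the E protein genes, only Tcf4 was called. It was at 39.0, 41.4 and 38.3 FPKM in the WT libraries and at 58.5, 75.5 and 53.7 FPKM in Bach2-cKO replicates 1, 2 and 3. The WT libraries lay close together, and Bach2-cKO replicate 2 was the highest. Mean Tcf4 was 39.5 ± 1.64 FPKM in WT and 62.6 ± 11.4 in Bach2-cKO (SD, n = 3 each), 1.58 times higher in Bach2-cKO. The log2 fold change was 0.64 (SE 0.12, limma adjusted p = 0.0125). It ranged from 0.49 to 0.74 with 1 library left out, and the adjusted p rose above the threshold without WT replicate 1 (0.0528).

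B cells also express Tcf4, so markers of B cells and plasma cells are given beside it. The 8 B cell markers summed to 1000.3, 1409.2 and 1009.0 FPKM in WT replicates 1, 2 and 3 and to 1470.0, 1891.2 and 1613.2 in Bach2-cKO replicates 1, 2 and 3, and 4 of the 8 were called higher while 4 did not pass. The 4 plasma cell markers summed to 81.7 to 94.1 FPKM in WT and 157.3 to 225.6 in Bach2-cKO, and 2 of the 3 tested were called higher, Jchain and Mzb1, while Sdc1 was at -0.054 on the log2 scale (limma adjusted p = 0.863). Bach2-cKO replicate 2 was highest for both sums and for Tcf4. Among the WT libraries, replicate 2 was likewise highest for the B cell sum and for Tcf4. That match is not particular to Tcf4: WT replicate 2 was also the highest WT library for Id1, Id2, Id3 and Tcf3, and the lowest for Tcf12. The orders of the B cell sum and Tcf4 differed elsewhere: Bach2-cKO replicate 3 had a higher B cell sum than replicate 1 but lower Tcf4 (53.7 against 58.5 FPKM). WT replicate 2 came near Bach2-cKO replicate 1 in the B cell sum, with Tcf4 at 41.4 FPKM. With the mean log2 level of the B cell markers as a covariate, the log2 fold change of Tcf4 was 0.35 (SE 0.20, limma adjusted p = 0.429). That of Id3 was -1.89 (SE 0.35, adjusted p = 0.0813) and that of Id2 was 0.39 (SE 0.21, adjusted p = 0.413). The SE of all 6 genes was larger with this covariate, and 29 genes were higher and 35 lower among all genes tested. Since the B cell sums of the groups did not overlap, this covariate runs with the group, and their effects cannot be told apart. The part of B cells in the values of Tcf4 and of the other members was not tested.

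The markers of plasmacytoid dendritic cells, the cell type that depends on E2-2, did not move together. Siglech lay at 0.0449 to 0.157 FPKM and Klk1 at 0 to 0.0278 FPKM, and neither was tested. Of the 5 markers, 3 were tested. Cox6a2 was called higher (1.53 on the log2 scale, limma adjusted p = 0.00126), from 2.41 ± 0.575 FPKM in WT to 8.80 ± 1.05 in Bach2-cKO (SD, n = 3 each). Pacsin1 was called lower (-0.44, adjusted p = 0.0109). Spib, a gene that B cells express strongly, was not called (0.098, adjusted p = 0.757). The part of plasmacytoid dendritic cells in the Tcf4 value was not tested. The sum of the list was 294.7 to 428.9 FPKM in WT and 302.0 to 382.1 in Bach2-cKO. The 7 myeloid and conventional dendritic cell markers summed to 13.8 to 17.6 FPKM in WT and 19.0 to 22.9 in Bach2-cKO. Of the 4 tested, limma called 0, with 2 at an unadjusted p under 0.05, and limma-voom called 1 higher. Over all genes tested limma-voom called 1170 higher and 1352 lower, and the share at an unadjusted p was not counted.

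**Figure D3:**
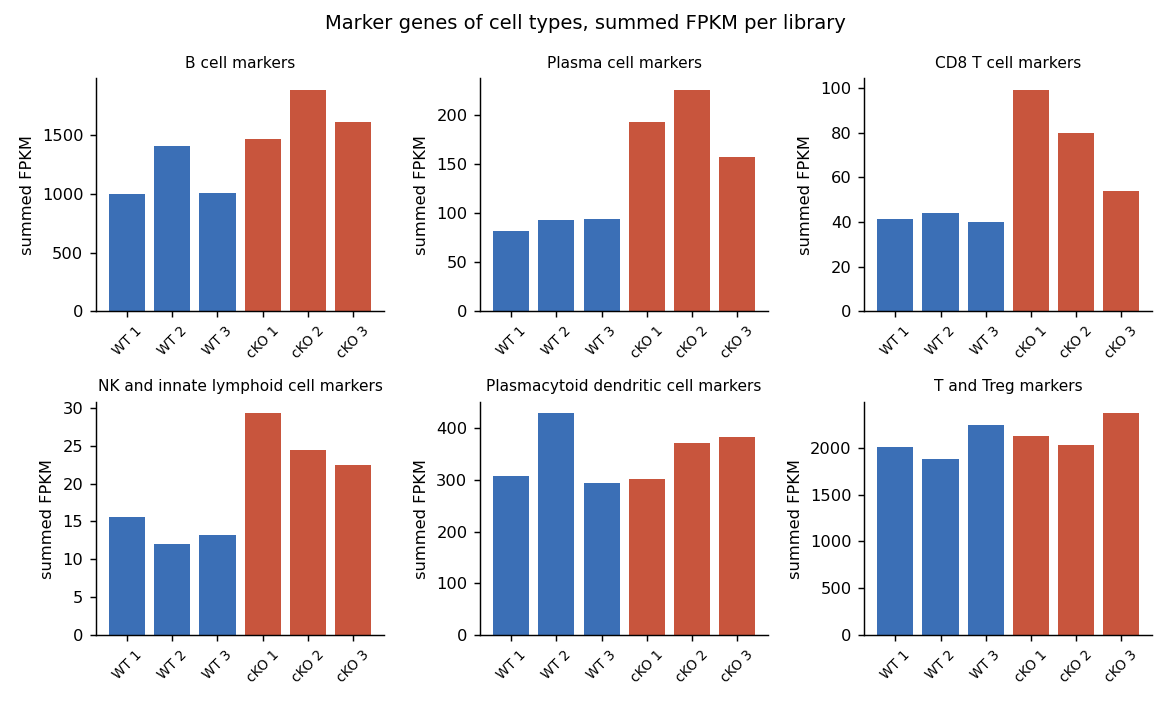
Summed FPKM (vertical axes from 0) of 6 marker lists in each library, blue WT and red Bach2-cKO. The B cell, plasma cell, CD8 T cell and NK sums of all Bach2-cKO libraries lie above those of all WT libraries, while the plasmacytoid dendritic cell sums and the T and Treg sums overlap.

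Tcf3, the gene of E2A and the most abundant E protein gene, had no call. It was at 111.4, 145.4 and 100.2 FPKM in the WT libraries and at 105.4, 115.9 and 125.4 FPKM in Bach2-cKO. The Bach2-cKO libraries lay within the range of WT, where replicate 2 was the highest. Mean Tcf3 was 119.0 ± 23.5 FPKM in WT and 115.6 ± 9.997 in Bach2-cKO (SD, n = 3 each). The log2 fold change was -0.027 with a 95% interval of -0.34 to 0.29 (limma adjusted p = 0.919). With the B cell covariate it was -0.47 (SE 0.18, adjusted p = 0.266).

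Tcf12, the gene of HEB, was slightly lower in Bach2-cKO without passing the test. It was at 60.0, 56.6 and 58.9 FPKM in WT and at 48.1, 51.7 and 56.4 FPKM in Bach2-cKO. Bach2-cKO replicate 3 lay just below the lowest WT library. Mean Tcf12 was 58.5 ± 1.75 FPKM in WT and 52.1 ± 4.16 in Bach2-cKO (SD, n = 3 each). The log2 fold change was -0.17 with a 95% interval of -0.33 to -0.00075 (limma adjusted p = 0.160).

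The 3 E protein genes together gave 217.0 ± 23.7 FPKM in WT and 230.2 ± 16.2 in Bach2-cKO (SD, n = 3 each), with overlapping groups. Tcf4 made up 18.3% ± 1.21 of this sum in WT and 27.2% ± 4.13 in Bach2-cKO. Tcf3 made up 54.5% ± 4.68 and 50.2% ± 2.81, and Tcf12 27.2% ± 3.49 and 22.6% ± 1.34 (SD, n = 3 each). The ratio of summed ID to summed E protein FPKM was 0.734, 0.811 and 0.756 in WT and 0.778, 0.556 and 0.670 in Bach2-cKO, and the groups overlapped. These sums, shares and ratios depend on the gene lengths behind the FPKM, most of all for Tcf4 (1751 bases, longest transcript 8577). Per length of the longest transcript, mean Tcf3, Tcf12 and Tcf4 were 90.8, 22.9 and 8.07 FPKM in WT. In Bach2-cKO they were 88.2, 20.4 and 12.8, so the Tcf4 share is smaller on that scale in both groups.

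By level in WT the order was Tcf3, Id2, Id3, Tcf12, Tcf4 and Id1. The ranges of Tcf3 and Id2, of Id2 and Id3 and of Id3 and Tcf12 overlapped, while Tcf12, Tcf4 and Id1 were apart. In Bach2-cKO the order was Id2, Tcf3, Tcf4, Tcf12, Id3 and Id1, where Id2 overlapped Tcf3 and Tcf4 overlapped Tcf12. This order depends on the lengths behind the FPKM, which for 5 of the 6 genes equal the mean length of the annotated transcripts, within 1 base. Tcf4 has 62 annotated transcripts with a mean of 1751 bases and a longest of 8577. Per length of the longest transcript, Tcf4 lay at 8.07 ± 0.334 FPKM in WT and 12.8 ± 2.33 in Bach2-cKO (SD, n = 3 each). Its mean was below that of Id3 in both groups, with overlapping ranges in Bach2-cKO. On that scale Id3 was at 42.7 ± 10.4 and 15.7 ± 3.91, and Tcf12 at 22.9 ± 0.686 and 20.4 ± 1.63 (SD, n = 3 each).

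**Figure D4:**
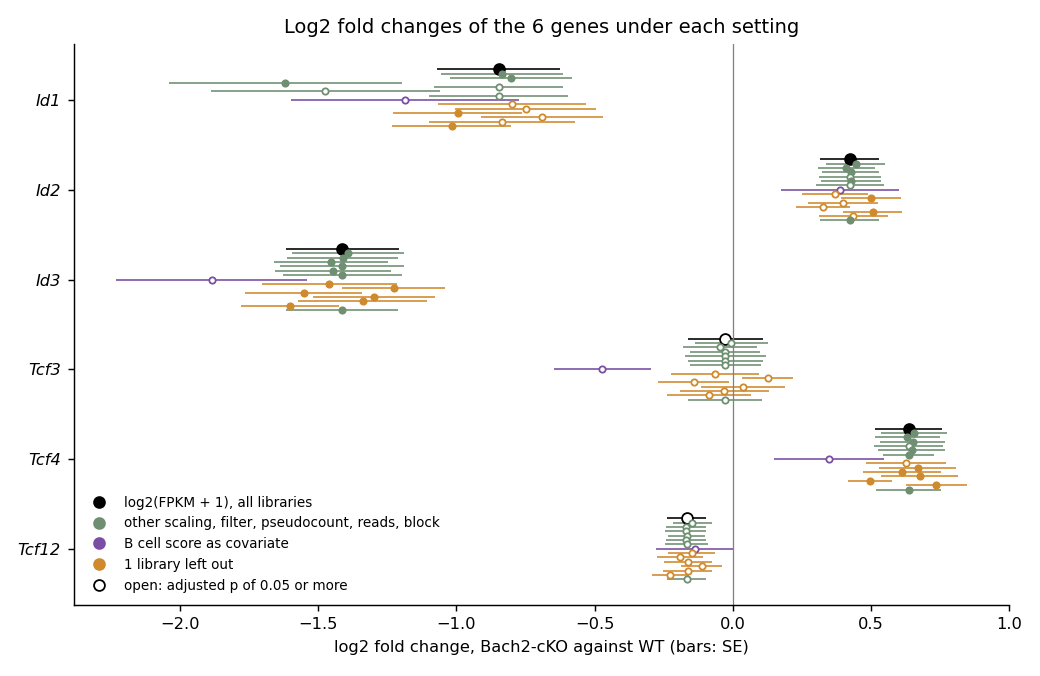
Log2 fold changes of Bach2-cKO against WT (horizontal axis, bars are SE) for each gene under every setting tried, with filled points where the adjusted p was under 0.05. Id3 lies below -1.2 under each setting and Tcf4 and Id2 lie above 0, while the points of Tcf3 fall on both sides of 0.

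Promoter bases were looked at for the called genes. The RefSeq promoter table (GRCm38.p6) held 4 of the 6 genes, Id2 and Id3 among the called ones. The sites searched on both strands in the 250 bases before the RefSeq start were the general E-box CANNTG and its forms CAGCTG and CACCTG, which overlap it. The others were the EGR patterns GCGTGGGCG and GCGGGGGCG, the MAF recognition pattern TGANTCAGC, the STAT pattern TTCNNNGAA and the SMAD pattern GGCGCC. The Id2 window held 1 CAGCTG, a pattern in 13.001% of 32851 promoter windows of this length, and 1 GGCGCC, in 9.59% of them. CANNTG itself was in 66.2% of the windows. Both Id2 matches lay in the stretch that is free of annotated exons, on the minus strand at chr12:25096254-25096342, 162 to 250 bases before the start. It is shown because Id2 is the called gene with an E-box here, with capitals marking the E-box.
Id2 upstream: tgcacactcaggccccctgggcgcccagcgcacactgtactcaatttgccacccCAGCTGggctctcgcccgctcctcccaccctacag

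The Id3 window held 0 of the patterns searched. It lies wholly within an exon of an annotated Id3 transcript that starts further upstream, so it is not printed. MAF recognition elements are what BACH2 binds, and the pattern searched was in 1.02% of all windows. A match or its absence in this window says nothing of binding.

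The genes known to act with E proteins were counted next. Each count below stands beside the 15.3% of all 13766 genes tested that limma called. With 1 library left out, the calls over all genes moved too, from 485 to 1200 higher and from 511 to 1378 lower. Of 23 partners and cofactors, 9 were tested, 3 were lower, 0 were higher and 6 did not pass (median log2 fold change -0.059). At an unadjusted p under 0.05, limma also put 0 higher and limma-voom 1. The share of all genes at that threshold was not counted. The class II helix-loop-helix partners of other lineages, such as Myod1 and Neurod1, are among the 14 not tested. The adaptor gene Ldb1, whose protein bridges LMO and helix-loop-helix factors, was at 224.9 ± 18.1 FPKM in WT and 163.7 ± 2.94 in Bach2-cKO (SD, n = 3 each). Its log2 fold change was -0.45 (SE 0.070, limma adjusted p = 0.00580). The LIM-only gene Lmo4 fell by 0.55 on the log2 scale (adjusted p = 0.0132) and the acetyltransferase gene Kat2b fell by 0.41 (adjusted p = 0.0133). The count of 3 became 1 without Bach2-cKO replicate 2.

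Among 22 genes known as targets of E proteins in T cells, 20 were tested, 2 were higher, 4 were lower and 14 did not pass (median log2 fold change -0.0064). The 4 lower genes are known from resting and recirculating T cells, a trait looked at for called genes only. Among the uncalled genes of the list, Il7r was at 0.35 on the log2 scale (limma adjusted p = 0.116) and Foxo1 at -0.21 (0.222). The chemokine receptor gene Ccr7 had a log2 fold change of -1.49, Tcf7 of -1.37, the egress receptor gene S1pr1 of -1.09 and Klf2, which drives S1pr1, of -0.60. Their limma adjusted p was 0.000204, 0.000523, 0.00229 and 0.0376. The cytokine signalling inhibitor gene Socs1 was higher by 0.99 (adjusted p = 0.00159) and the cell cycle inhibitor gene Cdkn1a by 0.57 (adjusted p = 0.0149). Of these genes, E proteins are known to activate some and repress others, so the list has no direction of its own.

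Of 7 targets of E proteins in B cells, 4 were tested and 1 was higher (median log2 fold change 0.47). Pax5, the factor that fixes B cell identity, rose from 181.5 ± 17.3 FPKM in WT to 284.6 ± 32.1 in Bach2-cKO (SD, n = 3 each), by 0.64 on the log2 scale (SE 0.10, limma adjusted p = 0.00623). Pax5 also stands among the B cell markers above. The count of 1 became 4 without WT replicate 2.

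All 20 genes on the list of upstream regulators of Id genes were tested, and 3 were higher, 2 lower and 15 not called (median log2 fold change 0.0055). Prdm1, whose product BLIMP-1 is known to repress Id3 in effector T cells, was at 11.5, 10.04 and 16.6 FPKM in WT and at 39.2, 35.5 and 34.9 FPKM in Bach2-cKO. Its log2 fold change was 1.48 (SE 0.16, limma adjusted p = 0.00154), and plasma cells express it too. The TGF-beta receptor gene Tgfbr1 was higher by 0.53 and the Th2 factor gene Gata3 by 0.33, while Stat5b fell by 0.37 and Smad5, which carries bone morphogenetic protein signals, fell by 0.34. Their limma adjusted p was 0.0205, 0.0435, 0.0288 and 0.0323. Egr1 and Egr3, which act on Id3 after T cell receptor signals, had log2 fold changes of 0.12 (SE 0.15) and 0.0072 (SE 0.093), and Egr2 of 0.56 (SE 0.16, adjusted p = 0.0601). These 3 were named after their values were seen. The number of calls on the list, 5 with all libraries, was 1 when WT replicate 1, WT replicate 2 or, in the other group, replicate 2 was left out. It was 2 when Bach2-cKO replicate 1 was left out.

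Genes most like each member were taken by Pearson's r of log2(FPKM + 1) over the 6 libraries, among genes with a mean of at least 5 FPKM. Nearest to Id3 were Acp6 (r = 0.999), Ing2 (0.999) and Acaa1a (0.998), all lower in Bach2-cKO. Another pattern was that of Tcf4, with the immunoglobulin segments Ighv1-7 (0.999) and Igkj5 (0.992) and the corepressor gene Tle4 (0.993) nearest. Nearest to Id2 were Llgl2 (0.992), Agpat4 (0.990) and Laptm4b (0.987). Tcf3 was nearest to Colgalt1 (0.994), Alkbh8 (0.983) and Capsl (0.983), Tcf12 to Mbd5 (0.995), Ppil2 (0.995) and Sbf2 (0.993), and Id1 to Lmbr1l (0.997), Il16 (0.996) and Cyhr1 (0.996). With 6 points in 2 groups such values are common: 408 of 9289 genes reached 0.95 with Id3, 143 with Tcf4 and 40 with Id2. They are descriptions over libraries that share their group, with no test.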

How the data were processed

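FPKM per gene and library, 1 column for each of the 6 libraries, were computed and deposited by the authors. Per the submitters' processing notes, HISAT2 2.0.5, featureCounts 1.5.0-p3 and the build mm9 were used; the sources used here give no annotation, filter or strand setting. Gene positions equal GENCODE M21 (GRCm38) for 91.5% of 49326 shared identifiers and are given on that build. Since FPKM moves in steps of 1 read, whole reads were recovered for all 28530 genes above 0 (tolerance 0.001 reads), for 24285 of them at the mean length of the annotated transcripts.

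Tests used limma 3.58.1 (intensity trend) in R 4.3.3 on log2(FPKM + 1) of genes that reached 1 FPKM in 3 or more libraries, two-sided, with no covariate and a threshold of 0.05 after Benjamini-Hochberg adjustment. The test was checked on simulated data. Replicates of a group differed by more than counting noise (chi-square per degree of freedom 9.68 to 21.8).

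The members and gene lists were chosen with earlier results of these data known. Named genes are the members, up to 6 called genes a list with the smallest p, and the 3 genes most like each member. Alternatives were other scalings, limma-voom on reads, 2 filters, a pseudocount of 0.1, a replicate block, a B cell covariate and leaving out each library.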

Additional observations from a re-analysis of the deposited data

How the results depend on the processing

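Id3 kept its direction under all 14 alternatives, from -1.89 to -1.23 on the log2 scale, and its call under 13 of them. The log2 difference of the Id2 to Id3 ratio stayed between 1.66 and 2.08 under 9 alternatives, both ends with a library left out. Scaling of whole libraries cancels within the ratio, and recovered reads differ from FPKM only by constant lengths and totals. Those settings could hardly move the ratio difference. Tcf12 stayed uncalled throughout (-0.23 to -0.11). When the mean log2 level of the B cell markers was a covariate, the log2 fold changes were -1.19 for Id1, 0.39 for Id2, -1.89 for Id3 and 0.35 for Tcf4, none called. Calls fell to 29 higher and 35 lower, with 0 of the partners and cofactors, 1 T cell target, 0 B cell targets and 0 upstream regulators by limma. This covariate runs with the group, so their effects cannot be told apart. With no filter, Id1 (-0.85, adjusted p = 0.121), Id2 (0.42, 0.111) and Tcf4 (0.64, 0.0543) lost their calls, 501 genes were higher and 681 lower, and 1 upstream regulator was called; more genes were tested there. With a pseudocount of 0.1, which shrinks the fold change less at the level of Id1, this gene was at -1.47 (limma adjusted p = 0.0534). Its SE was larger too, 0.42 against 0.22 on log2(FPKM + 1). Id1 has no value with the filter at 1 FPKM in all libraries.

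Same-numbered libraries did not deviate together (r = -0.053, 0.0058 and -0.21). With deviations from means of 3 libraries this cannot exclude a pairing, and the labels state none. With the replicate block, Id1 (-0.85, adjusted p = 0.103) and Id2 (0.42, 0.0979) were not called, 625 genes were higher and 657 lower, against 967 and 1144 without it, and 2 B cell targets and 2 upstream regulators were called.

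With 1 library left out, Id1 ranged from -1.02 to -0.69, Id2 from 0.33 to 0.51, Id3 from -1.60 to -1.23, Tcf4 from 0.49 to 0.74 and Tcf3 from -0.14 to 0.13. Tcf3 changed sign without WT replicate 2 (0.13) and without Bach2-cKO replicate 1 (0.037). Genes called ranged from 485 to 1200 higher and 511 to 1378 lower, partners and cofactors from 1 to 4, T cell targets from 5 to 9, B cell targets from 1 to 4 and upstream regulators from 1 to 5. Depth limits Id1 most, with 11 to 106 reads a library.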
